A study of Mus musculus with 2 samples.

Results

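The 10 genes of the Notch pathway described here were followed through cells of E7 mouse embryos with and without Yap1: the ligands Dll1, Dll3 and Jag1, the receptors Notch1, Notch2 and Notch3, the glycosyltransferase Lfng, the targets Hes1 and Hey1, and the DNA-binding partner Rbpj. They were taken by symbol, 10 of 32285 genes in the matrices. Cells had been dissociated from pooled embryos and counted by single-cell RNA sequencing (scRNA-seq) on the 10x Genomics platform in 1 library per genotype. The control pool held 4 embryos that the series text and the study's account of this experiment give as Sox2-Cre with 1 floxed Yap1 allele. The sample label reads WT, and the general animal methods describe floxed controls without Cre. The Yap1 cKO pool held 3 embryos with Sox2-Cre and both Yap1 alleles floxed. Sox2-Cre is active in the epiblast and its descendants, so the visceral endoderm and the extraembryonic ectoderm are not meant to lose Yap1, and both pools shared the floxed background and, by the series text, the Cre transgene. The paper cautions that embryos with both Yap1 alleles floxed, control and cKO, are likely heterozygous for Yap1 in extraembryonic tissues. It gives deletion of the paternal allele as the reason. The paper does not say this of embryos with 1 floxed allele, so the pools may differ in extraembryonic Yap1.

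Notch receptors are cleaved when a ligand on a neighbouring cell engages them, and the released intracellular domain joins RBPJ on DNA and switches on targets such as Hes1 and Hey1, which encode transcriptional repressors. DLL1 and JAG1 activate receptors from the neighbouring cell, whereas DLL3 is known as an inhibitor of Notch signaling within its own cell. LFNG adds sugars to the receptors and shifts their response between Delta and Jagged ligands. In the mouse embryo the pathway is best known for segmentation of the presomitic mesoderm, where Dll1, Dll3, Lfng and Mesp2 act together, and it is also known for node and left-right patterning and for blood and heart formation.

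On GRCm38 (GENCODE M21) the ligand genes lie at chr17:15367354-15376872 (Dll1), chr7:28293553-28302238 (Dll3) and chr2:137081456-137116644 (Jag1), all on the minus strand. The receptor genes lie at chr2:26457903-26516663 (Notch1, minus), chr3:98013527-98150361 (Notch2, plus) and chr17:32120820-32166852 (Notch3, minus). Lfng is at chr5:140607320-140615545 (plus), Hes1 at chr16:30064384-30067796 (plus), Hey1 at chr3:8663359-8667256 (minus) and Rbpj at chr5:53466152-53657362 (plus).

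Promoters are shown for Lfng and Dll1, the 2 members that were lower past 1.5-fold in mesoderm-bound Yap1 cKO cells, and for Hes5, another Notch target that is named below. Each is the 250 bases before a RefSeq transcription start (GRCm38.p6), read 5′ to 3′ along the gene, and capitals mark GTGGGAA and its inner TGGGAA, the letters RBPJ is known to bind, on either strand.
Lfng, chr5:140607091-140607340, plus strand: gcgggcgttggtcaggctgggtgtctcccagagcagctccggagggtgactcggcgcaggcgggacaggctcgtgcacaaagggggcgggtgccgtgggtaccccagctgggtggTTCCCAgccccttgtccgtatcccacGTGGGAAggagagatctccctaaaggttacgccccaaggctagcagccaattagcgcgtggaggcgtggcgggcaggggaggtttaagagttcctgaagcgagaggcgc
Dll1, chr17:15376933-15377182, minus strand: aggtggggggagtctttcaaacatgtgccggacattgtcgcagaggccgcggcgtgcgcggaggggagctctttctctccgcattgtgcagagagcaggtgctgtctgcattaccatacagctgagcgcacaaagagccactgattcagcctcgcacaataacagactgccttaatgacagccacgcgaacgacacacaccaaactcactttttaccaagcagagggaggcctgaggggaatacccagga
Hes5, chr4:154960673-154960922, plus strand: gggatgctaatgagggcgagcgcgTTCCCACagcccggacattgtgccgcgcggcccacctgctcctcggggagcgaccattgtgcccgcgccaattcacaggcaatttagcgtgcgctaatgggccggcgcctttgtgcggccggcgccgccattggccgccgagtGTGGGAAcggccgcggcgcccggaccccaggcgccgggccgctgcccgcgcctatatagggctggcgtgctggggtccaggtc
The Lfng window held 1 GTGGGAA, starting 109 bases before the start, and a further TGGGAA on the other strand. The Hes5 window held 2 GTGGGAA, 1 on each strand, and neither window of Dll1, which has 2 annotated starts, held any match. Of 32851 promoter windows in the table, 5.42% held GTGGGAA and 21.6% held TGGGAA, which every GTGGGAA contains. Among the members, 8 of 10 had a window, and Lfng alone held GTGGGAA, while Rbpj held TGGGAA only. Hes1 and Hey1 are named only. A match describes the letters in these windows.

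After filtering, 790 control and 860 Yap1 cKO cells remained, with 70573418 and 87937858 UMIs (unique molecular identifiers, 1 per captured RNA molecule) over all barcodes of the 2 libraries and a median of 75697 and 80559 UMIs per cell. The cells were sorted into populations by the summed level of marker genes that include no Notch gene. No barcode was shared between the cells of the libraries. Yap1 was counted 637 times in control and 30 times in Yap1 cKO epiblast cells (29.3 and 1.12 UMIs per 1000000, written CPM, a ratio of 0.0382), and its ratio was 0.0516 to 0.0838 in the T- or Mixl1-positive, Mesp1- or Mesp2-positive, Foxf1- or Hand1-positive and node-like cells. The labels call both pools female, yet Y-linked UMIs were found in both. With at least 2 Y-linked UMIs and 0 of Xist, 51.6% of control and 15.6% of Yap1 cKO cells were called Y-bearing. Values within Xist-bearing and within Y-bearing cells are therefore also given for some of the ratios. RNA floating between cells, taken to have the make-up of the whole library, was estimated from markers of visceral endoderm and extraembryonic ectoderm outside their own cells. Where both marker lists applied, the smaller estimate was kept, so the values are not upper limits. They ran up to 0.831% of the UMIs of an embryonic population, and stood at 3.84% in control visceral endoderm-like cells.

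The embryonic populations were epiblast-like cells (265 control and 268 Yap1 cKO cells, positive for Pou5f1), T- or Mixl1-positive cells (30 and 32), Mesp1- or Mesp2-positive cells (55 and 69), Foxf1- or Hand1-positive cells (70 and 60), blood-like cells (30 and 35) and node-like cells (52 and 60). The extraembryonic ones were visceral endoderm-like (77 and 202), anterior visceral endoderm-like (18 and 20) and extraembryonic ectoderm-like cells (183 and 105). Check markers were at least 1.5 times as high in their population as elsewhere for 9 of 9 epiblast genes in both libraries. These 9 include Pou5f1, whose rise was set by the gate. The same held for 6 of 6 streak, 7 of 7 nascent mesoderm, 5 of 5 extraembryonic ectoderm, 4 of 4 visceral endoderm and 3 of 3 anterior visceral endoderm genes. It held for 6 and 5 of 7 lateral mesoderm genes in control and Yap1 cKO cells. For blood and for node it held for 4 of 5 genes in both libraries. The blood exception was Sox17, at 15.4 and 6.86 CPM against 35.5 and 38.8 in the remaining cells. The node exception was Nog, at 1.24 and 0.562 CPM against 1.22 and 1.31. The raised node genes were Cer1 (280 and 197 CPM), Sox17 (234 and 67.9), Pifo (28.2 and 16.3) and T (135 and 111). Cer1 is also among the anterior visceral endoderm gate genes. The paper annotates an endoderm population and no node. Node-like therefore names the gate only, and endoderm cells were not separated within it. With 1 library per genotype no test between genotypes was possible. Levels are UMIs of a gene per 1000000 UMIs of the population (CPM), with exact Poisson 95% intervals. Ratios are Yap1 cKO over control with exact 95% intervals, and both cover counting error only, not differences between embryos or libraries. A molecule is counted once whatever the length of its gene, so levels of different genes can be set side by side, within the limit that genes differ in capture.

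The ligands were concentrated in a few populations. Dll1 was a gene of the Mesp1- or Mesp2-positive cells, at 31.6 CPM (26.6 to 37.4) in control and 19.0 (15.7 to 22.8) in Yap1 cKO cells. In the control it was 5.56-fold (3.56 to 9.07) above the next population, the node-like cells, and in the epiblast-like cells it was near absent at 0.552 and 0.746 CPM. Below the Mesp1- or Mesp2-positive cells no 2 neighbours in the control order of Dll1 differed beyond counting error.

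Dll3 had the same highest population at a higher level, 81.7 CPM (73.5 to 90.6) in control and 75.6 (68.9 to 82.8) in Yap1 cKO cells. It followed at 26.9 and 49.1 CPM in Foxf1- or Hand1-positive cells and at 22 and 21.6 CPM in node-like cells, which could not be told apart from the former in the control. Unlike Dll1, it was also counted in extraembryonic ectoderm-like cells, at 6.89 and 8.67 CPM, and it was nearly missing from visceral endoderm-like cells, with 4 and 3 UMIs, and had no UMI in their anterior class.

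Jag1 had another order. It was highest in node-like cells, with 52.9 CPM (46.1 to 60.5) in control and 35.4 (30.6 to 40.9) in Yap1 cKO cells, and second in Mesp1- or Mesp2-positive cells, at 28.0 and 20.1 CPM. The node-like cells stood 1.89-fold (1.51 to 2.38) and 1.76-fold (1.40 to 2.23) above them. Epiblast-like cells held 6.57 and 6.72 CPM, and extraembryonic ectoderm-like cells 4 and 6 UMIs in all.

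Notch1 was highest in 2 populations. Mesp1- or Mesp2-positive cells held 21.8 and 17.4 CPM of Notch1 and blood-like cells 19.0 and 19.7 CPM, which did not differ beyond counting error. Foxf1- or Hand1-positive cells followed at 9.89 and 15.5 CPM, and the other populations held 2.67 to 4.74 CPM in the control and 0.305 to 5.91 CPM in Yap1 cKO. Notch2 was counted in every population at 15 to 56.3 CPM, highest in blood-like cells (56.3 and 42 CPM) and anterior visceral endoderm-like cells (51.8 and 41.3 CPM), which again were not apart. Notch3 was the receptor that separated embryonic from extraembryonic cells. It ran from 8.78 to 17.2 CPM in embryonic populations and at 1.5 and 1.59 CPM in visceral endoderm-like and 0.521 and 0.788 CPM in extraembryonic ectoderm-like cells, but at 13.7 and 17.1 CPM in the anterior visceral endoderm-like cells.

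Lfng, the fringe enzyme, had the same highest population as Dll1 and Dll3. Mesp1- or Mesp2-positive cells held 15 CPM (11.6 to 19.1) in control and 9.09 (6.87 to 11.8) in Yap1 cKO, which was 4.47-fold (2.59 to 8.12) above the next population in the control. No UMI of Lfng was found in visceral endoderm-like cells of either library, where a count of 0 still allows 0.615 and 0.225 CPM.

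The targets differed from the ligands in breadth. Hes1 was counted in every population and was higher, step by step, along the embryonic ones other than the blood-like cells. The order in the control ran from 43.5 CPM in epiblast-like cells with little Fgf8 through 76.6 in those with Fgf8, 103 in T- or Mixl1-positive, 122 in Mesp1- or Mesp2-positive and 162 in Foxf1- or Hand1-positive cells to 209 in node-like cells. The same populations in Yap1 cKO held 43.8, 56.8, 86.2, 103, 141 and 172 CPM. Each of these steps was larger than counting error in both libraries. The blood-like cells, at 90.4 CPM in the control, were not apart from T- or Mixl1-positive cells in the control or from Mesp1- or Mesp2-positive cells in Yap1 cKO. Anterior visceral endoderm-like cells held 190 and 201 CPM of Hes1, 3.02-fold (2.51 to 3.62) and 3.20-fold (2.81 to 3.64) above the other visceral endoderm-like cells.

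Hey1 was far lower, at most 10.3 CPM in control against 13.2 CPM in Yap1 cKO, in Foxf1- or Hand1-positive cells in both libraries. Rbpj was the most even member, between 51.6 and 74.0 CPM in the control and between 42.9 and 59.7 CPM in Yap1 cKO. No neighbours in its order were apart in either library.

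**Figure D1:**
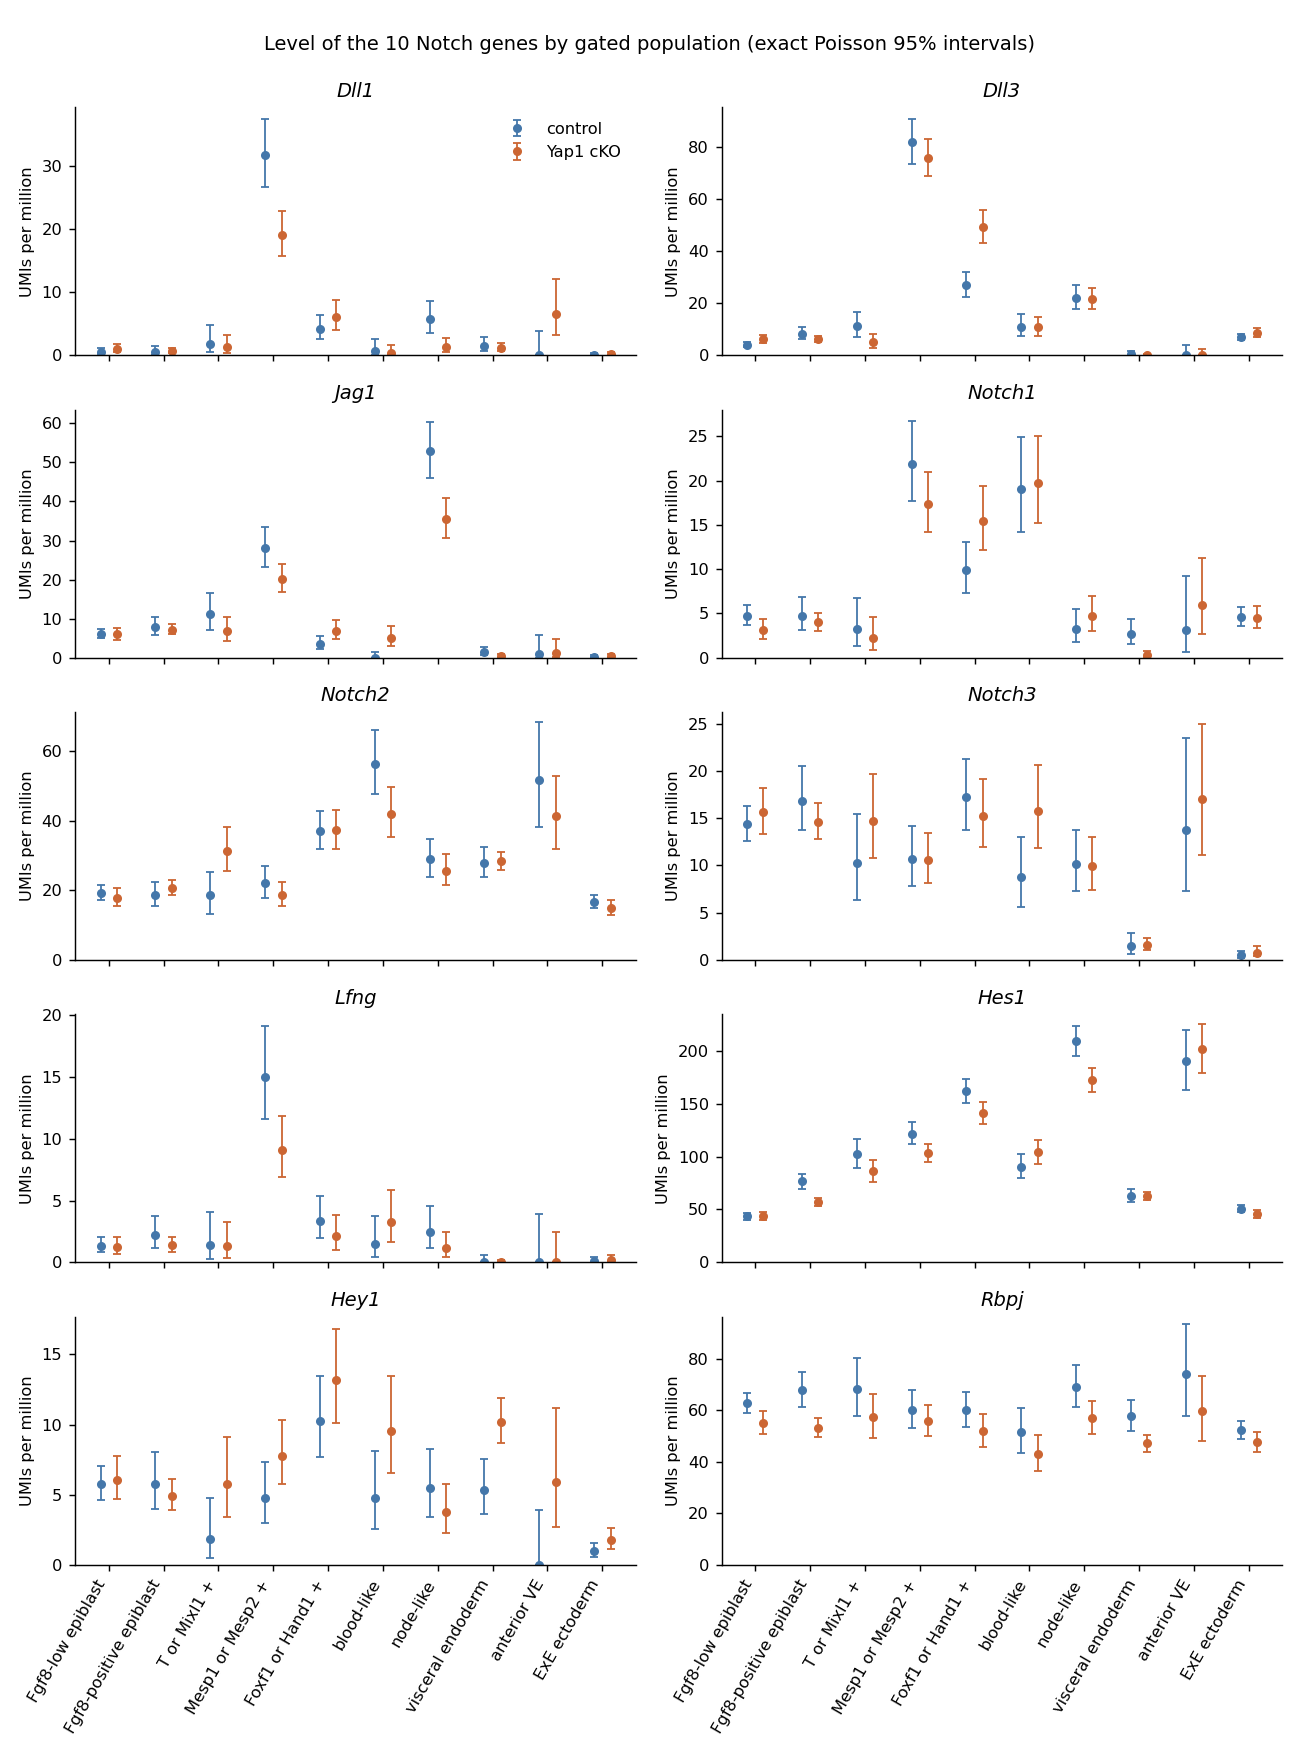
Level of each of the 10 genes (vertical axis, CPM, linear from 0) in 10 gated populations of the control (blue) and the Yap1 cKO library (orange); points are the level over all cells of a population and bars the exact Poisson 95% interval. Dll1, Dll3 and Lfng peak in Mesp1- or Mesp2-positive cells and Jag1 in node-like cells. Leaving out the blood-like cells, Hes1 is higher step by step from Fgf8-low epiblast to node-like cells. Rbpj stays between 42.9 and 74.0 throughout.

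The comparison in the epiblast asks whether Notch genes differed between the 2 pools in the tissue where Sox2-Cre is active. No member passed 1.5-fold there. Of the 9 members with at least 50 UMIs over both libraries, 0 were at least 1.5-fold higher and 0 at least 1.5-fold lower in Yap1 cKO, where 2.23% of 12993 genes were higher and 3.22% lower by that rule, and their median ratio was 0.983 against 0.969 over all genes. Dll1, the remaining member, had 12 and 20 UMIs and was too low to read.

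The abundant members were the best resolved. Hes1 stood at 52.5 CPM (49.5 to 55.7) in control and 51.7 (49.0 to 54.4) in Yap1 cKO epiblast-like cells, a ratio of 0.983 (0.908 to 1.06). Notch2 had 19.1 and 19.6 CPM (1.03, 0.903 to 1.17) and Notch3 15 and 15 CPM (0.998, 0.860 to 1.16). Over all epiblast-like cells Rbpj was the only member whose interval left out 1. It had 64.0 CPM (60.7 to 67.5) against 53.9 (51.1 to 56.7), a ratio of 0.842 (0.781 to 0.907). Within Xist-bearing epiblast-like cells Notch3 gave 1.26 (1.02 to 1.57), and within Y-bearing ones 0.736 (0.567 to 0.9498). These intervals did not overlap. Notch2 gave 0.937 (0.784 to 1.12) and 1.27 (1.03 to 1.57). In Fgf8-low cells Notch3 was 1.57 (1.17 to 2.1) in Xist-bearing and 0.57 (0.328 to 0.933) in Y-bearing cells. In Fgf8-positive cells both of its intervals held 1. The part of sex or embryo was not tested.

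The rarer members had wider intervals, all of which held 1. Dll3 had 5.10 and 6.16 CPM (1.21, 0.943 to 1.55) and Jag1 6.57 and 6.72 CPM (1.02, 0.816 to 1.28). Notch1 had 4.73 and 3.62 CPM (0.765, 0.573 to 1.02) and Hey1 5.75 and 5.37 CPM (0.935, 0.731 to 1.20). Lfng had 1.56 and 1.31 CPM (0.836, 0.506 to 1.38), an interval wide enough to hold a level 1.5-fold lower.

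The epiblast-like cells of the 2 pools were not alike in make-up. Fgf8, a signal of the posterior epiblast, stood at 73.8 and 174 CPM over these cells, and 72 of 265 control but 153 of 268 Yap1 cKO cells passed 50 CPM of Fgf8. Within the Fgf8-positive cells Hes1 was 76.6 CPM (69.7 to 83.9) in control and 56.8 (53.2 to 60.6) in Yap1 cKO, a ratio of 0.742 (0.663 to 0.833), whereas in the Fgf8-low cells the levels were 43.5 and 43.8 CPM. Hes1 was 1.76-fold (1.56 to 1.98) higher in Fgf8-positive than in Fgf8-low cells in the control and 1.30-fold (1.16 to 1.45) higher in Yap1 cKO. With the control weighted to the Yap1 cKO share of Fgf8-positive cells, the ratio of Hes1 over the epiblast-like cells was 0.815. The same value in Xist-bearing Fgf8-positive cells alone was 0.731 and in Y-bearing ones 0.813. Since the cut uses Fgf8, whose own level differed between the pools, the part of that difference in these ratios was not tested.

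Dll3 was split in the same way. Its level was 3.92 CPM in control against 6.17 in Yap1 cKO Fgf8-low cells (1.57, 1.10 to 2.26) and 8.26 and 6.15 CPM in Fgf8-positive cells (0.744, 0.523 to 1.07). In the Fgf8-low cells it was the only 1 of 8 members at least 1.5-fold higher, where 2.1% of genes were, and Notch1, at 4.74 and 3.09 CPM (0.651, 0.419 to 0.993), the only one at least 1.5-fold lower, where 2.91% were. Within Xist-bearing Fgf8-low cells Dll3 gave 1.49 (0.915 to 2.47), and within Y-bearing ones 1.91 (0.918 to 3.76), so both intervals held 1. The part of sex was not tested. From Fgf8-low to Fgf8-positive cells the fold of Dll3 was 2.11 (1.42 to 3.12) in control cells, against 0.997 (0.723 to 1.38) in Yap1 cKO. In the Fgf8-positive cells 0 of 8 members passed 1.5-fold in either direction, where 2.72% of genes were higher and 3.9% lower.

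In the Mesp1- or Mesp2-positive cells, which carry genes of mesoderm leaving the streak, the comparison asks whether the population with the most Dll1, Dll3 and Lfng kept them without Yap1. Dll1 and Lfng were lower and Dll3 was not. Dll1 had 139 UMIs in 55 control cells and 117 UMIs in 69 Yap1 cKO cells, 31.6 against 19.0 CPM, a ratio of 0.600 (0.465 to 0.773). Lfng had 66 and 56 UMIs, 15 against 9.09 CPM, a ratio of 0.605 (0.416 to 0.877). Dll3, with 359 and 466 UMIs, had a ratio of 0.926 (0.805 to 1.07). The intervals of Dll1 and Lfng lay below 1, and that of Dll3 held it.

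These were 2 of 10 members at least 1.5-fold lower, where 3.32% of 9608 genes were, and Hey1 was the 1 member at least 1.5-fold higher, where 3.37% were, although its interval held 1 (21 and 48 UMIs, 4.78 and 7.79 CPM, 1.63, 0.957 to 2.87). The median ratio of the members was 0.847 against 0.985 over all genes. Jag1 was 28.0 and 20.1 CPM (0.719, 0.556 to 0.930), but without the cell with the most Jag1 in each library its interval held 1 (0.789, 0.596 to 1.05), and it was 0.526 (0.401 to 0.693) in Xist-bearing cells, while Y-bearing cells held 24 and 0 UMIs. Hes1 was 122 and 103 CPM (0.848, 0.754 to 0.953), and Notch1 had a ratio of 0.795 (0.598 to 1.06), Notch2 of 0.845 (0.640 to 1.12), Notch3 of 0.986 (0.667 to 1.47) and Rbpj of 0.929 (0.789 to 1.09).

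Other genes differed alongside these ratios. The 9 epiblast marker genes summed to 651 CPM in control against 916 CPM in Yap1 cKO Mesp1- or Mesp2-positive cells, with cell medians of 467 and 793 CPM, and none of the 9 was at 0 in either library. Mesoderm genes of the same cells were at 317 and 198 CPM for Lefty2, 87.8 and 57.0 for Pdgfra and 16.6 and 12.2 for Tbx6, whereas Mesp1 and Mesp2 themselves summed to 1147 and 1042 CPM. The 59 Yap1 cKO and 41 control cells with at least 20 CPM of Pou5f1 gave ratios of 0.567 (0.428 to 0.752) for Dll1 and 0.527 (0.354 to 0.783) for Lfng. The 10 Yap1 cKO and 14 control cells with less Pou5f1 gave 0.860 (0.434 to 1.63) and 1.05 (0.277 to 3.49), and Dll3 there was 169 CPM against 103 CPM (1.64, 1.24 to 2.17). In Xist-bearing cells alone the ratios were 0.612 (0.449 to 0.838) for Dll1 and 0.617 (0.394 to 0.978) for Lfng. Y-bearing cells could not be compared, since 3 Yap1 cKO cells, with no UMI of Dll1, stood against 26 control cells with 67. The part of cell stage and of sex in these ratios was not tested.

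**Figure D2:**
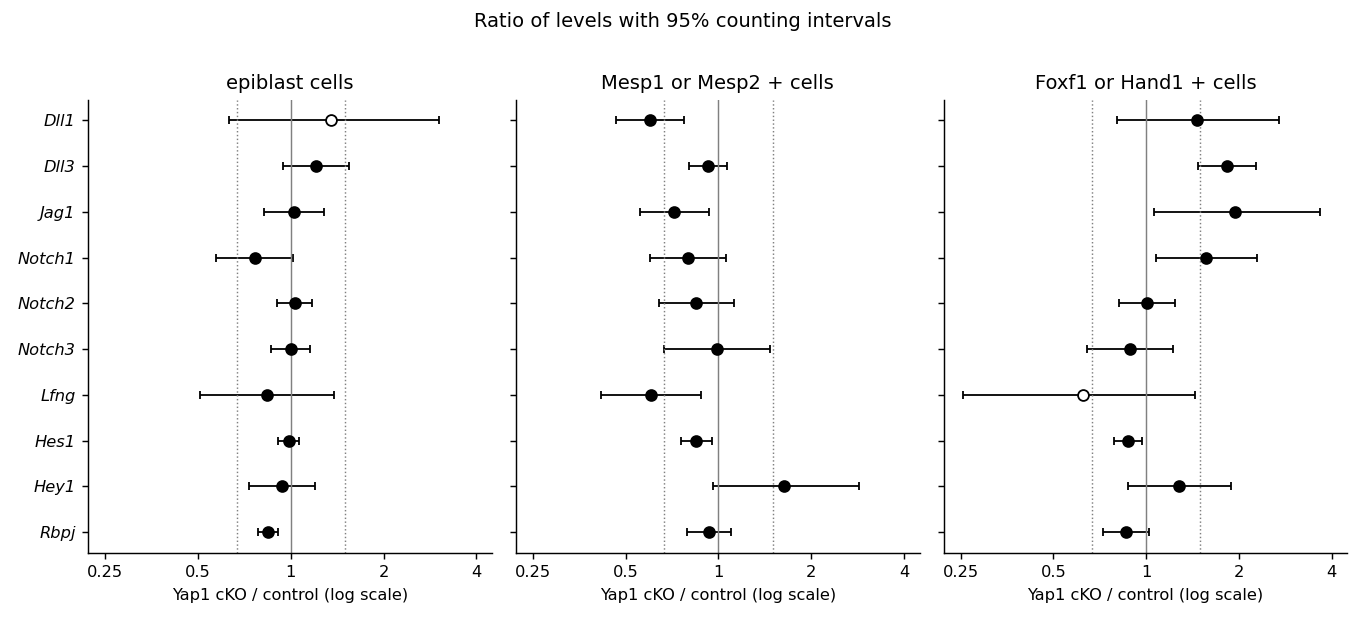
Ratio of levels, Yap1 cKO over control (horizontal log axis), for the 10 genes in epiblast-like, Mesp1- or Mesp2-positive and Foxf1- or Hand1-positive cells; bars are exact 95% counting intervals, open circles are genes under 50 UMIs and dotted lines mark 1.5-fold in each direction. In the epiblast no filled point passes a dotted line, Dll1 and Lfng lie to the left in Mesp1- or Mesp2-positive cells, and Dll3, Jag1 and Notch1 lie to the right in Foxf1- or Hand1-positive cells.

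The same genes were also read as the share of cells in which they were found. After each cell was thinned to 38000 UMIs, 26 of 55 control (47.3%, exact 95% interval 33.7 to 61.2) and 18 of 68 Yap1 cKO (26.5%, 16.5 to 38.6) Mesp1- or Mesp2-positive cells had a UMI of Lfng, and 67.3% and 40.6% did unthinned. The 2 intervals overlapped, and at 20000 UMIs per cell the shares were 18.2% and 20.3%. For Dll1 the thinned shares were 47.3% (33.7 to 61.2) and 42.6% (30.7 to 55.2), and the unthinned ones 76.4% and 58.0%. Visceral endoderm-like cells, as a background, had a UMI of Lfng in 0 of 71 and 0 of 177 cells and of Dll1 in 4.23% and 3.39% of cells. Dll3 was found in 85.5% and 70.6% and Hey1 in 12.7% (5.27 to 24.5) and 30.9% (20.2 to 43.3) of the Mesp1- or Mesp2-positive cells.

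Cells with Dll1 held Dll3 and Lfng in larger shares than cells without it. In the control, 65.4% of the 26 cells with Dll1 also had Lfng against 31.0% of the 29 cells without Dll1, and in Yap1 cKO 44.8% of 29 cells against 12.8% of 39. Dll3 was found in 96.2% of the cells with Dll1 and 75.9% of those without in the control, and in 82.8% and 61.5% in Yap1 cKO. Tbx6, a presomitic regulator, had a UMI in 65.4% of control cells with Dll1 and 34.5% of those without, and in 48.3% and 38.5% in Yap1 cKO. Notch1 was in 61.5% and 37.9% in the control and 58.6% and 46.2% in Yap1 cKO. Mesp2 was in 65.4% and 51.7%, then 62.1% and 53.8%. Hes1 was in 88.5% and 96.6%, then 96.6% and 94.9%. For each gene the exact 95% intervals with and without Dll1 overlapped in both libraries. Cells within a library share their embryos, so these shares describe the cells at hand.

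**Figure D3:**
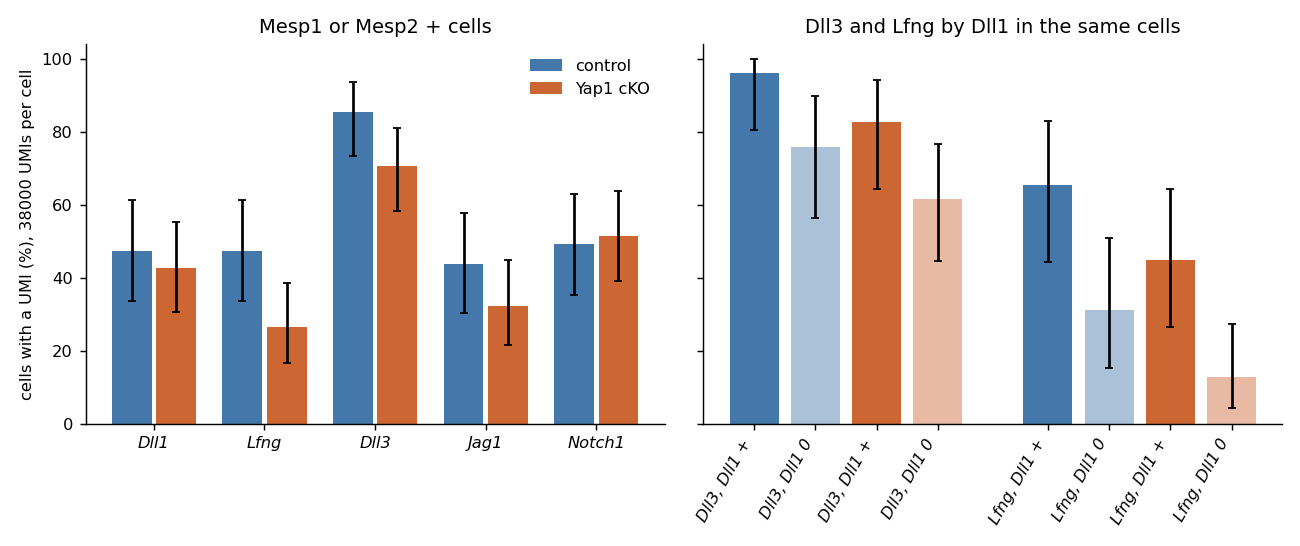
Left, percent of Mesp1- or Mesp2-positive cells with at least 1 UMI of each gene after thinning to 38000 UMIs per cell; right, percent of these cells with Dll3 or Lfng among cells with (full colour) and without (pale) a UMI of Dll1; control in blue, Yap1 cKO in orange, bars with exact binomial 95% intervals. Lfng is found in 47.3% of control and 26.5% of Yap1 cKO cells, and its share is larger beside Dll1 in both libraries, with overlapping intervals.

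The Foxf1- or Hand1-positive cells, with genes of lateral and extraembryonic mesoderm, held more of 2 ligands and a receptor in Yap1 cKO. Control cells held 136 UMIs of Dll3 and Yap1 cKO cells 235, 26.9 against 49.1 CPM, a ratio of 1.83 (1.47 to 2.27). Jag1 had 18 and 33 UMIs, 3.56 against 6.90 CPM (1.94, 1.06 to 3.66), and Notch1 50 and 74 UMIs, 9.89 against 15.5 CPM (1.56, 1.08 to 2.29). These 3 of 9 tested members were at least 1.5-fold higher, where 3.98% of 9641 genes were, and 0 were at least 1.5-fold lower, where 3.97% were.

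The other members of these cells were nearer to 1. Dll1 had 21 and 29 UMIs (1.46, 0.804 to 2.69), Hey1 52 and 63 (1.28, 0.873 to 1.89), and Notch2 was at 37.0 and 37.2 CPM (1.01, 0.815 to 1.24). Hes1 was lower, 162 against 141 CPM (0.871, 0.786 to 0.966), and Notch3 (0.887) and Rbpj (0.863) had intervals that held 1.

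The genes of earlier mesoderm differed alongside these ratios too. Mesp1 and Mesp2 summed to 572 CPM in control against 771 CPM in Yap1 cKO Foxf1- or Hand1-positive cells, the gate genes Foxf1 and Hand1 to 646 and 470 CPM, and the 9 epiblast marker genes to 286 and 436 CPM. Bmp4 was at 103 and 56.2 CPM and Pmp22 at 249 and 140 CPM. Among cells that also passed the Mesp1 or Mesp2 gate (47 control, 45 Yap1 cKO) Dll3 was 36.2 and 60 CPM (1.66, 1.33 to 2.08), Notch1 had a ratio of 1.56 (1.04 to 2.37) and Jag1 of 1.55 (0.829 to 3.0). Among those that did not (23 and 15), Dll3 had 14 and 5 UMIs, Notch1 11 and 5, and Jag1 1 and 3. Clustering without Notch genes gave smaller ratios for cells of this kind, 1.26 for Dll3 and 1.15 for Notch1, and Dll3 was 1.249 (0.931 to 1.69) in Xist-bearing and 2.38 (1.61 to 3.49) in Y-bearing cells. Jag1 was 1.16 (0.542 to 2.70) and 2.98 (0.892 to 9.96), and Notch1 was 1.28 (0.777 to 2.18) and 1.30 (0.551 to 2.83), in Xist-bearing and Y-bearing cells, so Notch1 did not reach 1.5-fold in either and Jag1 did not in the former. The part of cell stage and of sex was not tested.

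**Figure D4:**
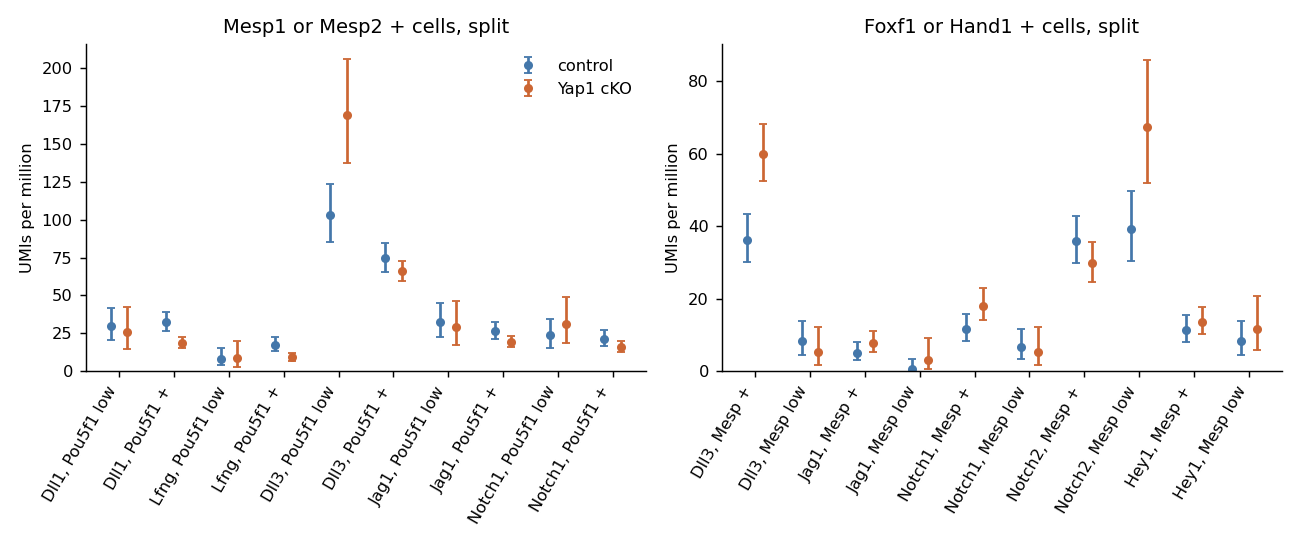
Level (CPM, linear from 0, exact Poisson 95% intervals) of 5 genes each in Mesp1- or Mesp2-positive cells split at 20 CPM of Pou5f1 (left) and in Foxf1- or Hand1-positive cells split by the Mesp1 or Mesp2 gate (right); control in blue, Yap1 cKO in orange. Dll1 and Lfng are lower in Yap1 cKO among the Pou5f1-positive cells, and Dll3 is higher in Yap1 cKO among Foxf1- or Hand1-positive cells that also carry Mesp1 or Mesp2 (60 against 36.2).

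In the node-like cells, where Jag1 is highest, it was lower in Yap1 cKO, with 214 UMIs in 52 control and 189 in 60 Yap1 cKO cells, 52.9 against 35.4 CPM (0.670, 0.548 to 0.818). This lay just inside 1.5-fold, so 0 of 6 tested members passed it in either direction, where 2.74% of genes were higher and 6.84% lower. Hes1 was also lower, 209 against 172 CPM (0.825, 0.750 to 0.907), and Dll3 was 22 and 21.6 CPM. The 6 node marker genes summed to 507 and 342 CPM in these cells and the 6 anterior visceral endoderm markers to 618 and 383 CPM. Jag1 was 0.446 (0.344 to 0.578) in Xist-bearing and 1.36 (0.887 to 2.04) in Y-bearing cells. Dll1 had 23 and 7 UMIs, and 47.8% of the control UMIs came from 1 cell.

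The T- or Mixl1-positive cells, a small group, gave 50 UMIs for only 4 members. Notch2 was 18.6 CPM (13.3 to 25.3) in control and 31.4 (25.5 to 38.3) in Yap1 cKO, a ratio of 1.69 (1.16 to 2.51) that made it the 1 member at least 1.5-fold higher, where 2.96% of genes were, and 0 members were lower, where 4.64% were. It was 2.07 (1.24 to 3.62) in Xist-bearing and 1.35 (0.679 to 2.71) in Y-bearing cells. The gate genes T and Mixl1 summed to 197 and 131 CPM in these cells, the 6 anterior visceral endoderm markers to 21.3 and 77.9 CPM, with 1 and 0 of them at 0, and the 9 extraembryonic ectoderm markers to 25.5 and 52.3 CPM, with 4 and 1 at 0, and their part was not tested. Hey1 was counted 4 and 18 times and Dll3 24 and 16 times there. In blood-like cells Notch3 was 8.78 and 15.8 CPM (1.80, 1.09 to 3.05), the 1 of 6 members at least 1.5-fold higher, where 7.31% of genes were, and 0 were lower, where 3.76% were. Notch2 was 56.3 and 42 CPM (0.746, 0.590 to 0.944). In Xist-bearing blood-like cells Notch3 gave 1.249 (0.540 to 3.05) and Notch2 0.997 (0.725 to 1.38), and in Y-bearing ones 3.04 (1.52 to 6.48) and 0.343 (0.203 to 0.560). Hes1 was 0.797 (0.624 to 1.02) in the former and 1.80 (1.39 to 2.34) in the latter. No UMI of Jag1 was found in control blood-like cells and 17 were found in Yap1 cKO. Foxf1 and Hand1 summed to 97.7 and 220 CPM in blood-like cells, Mesp1 and Mesp2 to 112 and 197 CPM, the 9 epiblast markers to 145 and 232 CPM and the 9 blood markers to 957 and 797 CPM, and their part in these values was not tested.

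Outside the embryo proper, Hey1 was the only tested member past 1.5-fold. In visceral endoderm-like cells, not meant to lose Yap1, it had 32 UMIs in 77 control cells and 167 in 202 Yap1 cKO cells, 5.33 against 10.2 CPM (1.91, 1.30 to 2.88). It was the 1 of 4 tested members at least 1.5-fold higher, where 2.96% of genes were, and 0 were lower, where 4.62% were. In Xist-bearing cells the ratio was 3.53 (1.92 to 7.23), and in Y-bearing cells, with 19 and 2 UMIs, 0.237 (0.0267 to 0.982), so the intervals did not overlap, and the part of sex or embryo was not tested. Some control visceral endoderm-like cells carried Mesp1 or Mesp2 (31.8 CPM against 4.27 in Yap1 cKO), and without cells that had such markers the ratio was 2.12. Under 50 UMIs, Notch1 had 16 and 5 UMIs in these cells (0.114, 0.0328 to 0.327) and Jag1 9 and 7 (0.285, 0.0901 to 0.860), and anterior visceral endoderm-like cells held 0 and 10 UMIs of Dll1. Yap1 was found in 60.6% of control and 61.0% of Yap1 cKO visceral endoderm-like cells after thinning. In anterior visceral endoderm-like cells 0 of 3 tested members passed 1.5-fold, where 5.03% of genes were higher and 4.45% lower, and in extraembryonic ectoderm-like cells 0 of 5 did, where 2.48% were higher and 2.43% lower.

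Over all cells of each population, Rbpj kept a direction. It had a ratio below 1 in 10 of 10 populations, from 0.784 to 0.929, with an interval wholly below 1 in 4 of them, where the median gene had ratios of 0.961 to 1.01. That included visceral endoderm-like cells (57.7 and 47.1 CPM, 0.817, 0.719 to 0.930), in which Sox2-Cre is not meant to delete Yap1. The paper gives extraembryonic tissues as likely heterozygous in embryos with both alleles floxed, so the pools may differ there. In Xist-bearing cells alone Rbpj ran from 0.725 to 0.968. Y-bearing cells gave 1.14 (0.791 to 1.61) in node-like and 1.12 (0.640 to 1.84) in Mesp1- or Mesp2-positive cells. Mesp1- or Mesp2-positive cells under 20 CPM of Pou5f1 gave 1.10 (0.707 to 1.68). All populations come from the same 2 libraries, and the share of all genes that kept a direction was not counted. Hes1 was below 1 in the 5 mesoderm, node and Fgf8-positive populations of its gradient, at 0.742 to 0.871. The interval of the T- or Mixl1-positive cells held 1. In the Fgf8-low cells, where the gradient starts, Hes1 was at 1.01 (0.894 to 1.13). In Xist-bearing cells alone Hes1 was 1.004 (0.792 to 1.28) in T- or Mixl1-positive and 1.10 (0.932 to 1.30) in Foxf1- or Hand1-positive cells. The others of these 5 populations gave 0.731 to 0.908 in Xist-bearing cells, where the intervals of Mesp1- or Mesp2-positive and node-like cells held 1. All 5 gave 0.608 to 0.824 in Y-bearing cells, but from few Yap1 cKO cells. These were 3 Mesp1- or Mesp2-positive, 4 T- or Mixl1-positive, 7 node-like and 13 Foxf1- or Hand1-positive cells. The interval of the 3 held 1 (0.550 to 1.20), too few cells for a comparison. Mesp1- or Mesp2-positive cells under 20 CPM of Pou5f1 gave 1.28 (0.944 to 1.72), against 0.783 in the rest. Foxf1- or Hand1-positive cells outside the Mesp1 or Mesp2 gate gave 1.19 (0.967 to 1.46), against 0.778 in those that passed it. The part of sex and of cell stage was not tested. Over all cells Hes1 was also at 0.902 in extraembryonic ectoderm-like cells, and between 1.0 and 1.15 in Fgf8-low, visceral endoderm-like, anterior visceral endoderm-like and blood-like cells.

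Of the 42 other Notch pathway genes, 36 had 50 UMIs in epiblast-like cells, 2 were at least 1.5-fold higher and 0 lower, where 2.23% and 3.22% of all genes were, and their median ratio was 1.0. The 2, of which Hes5 was named after its values were seen, were Dlk1, a non-canonical ligand, with 11 and 45 UMIs (3.32, 1.69 to 7.12), and Hes5, with 31 and 58 UMIs (1.52, 0.966 to 2.43), which stood at 1.89 (1.09 to 3.33) in the Fgf8-low cells. Of 265 control and 268 Yap1 cKO epiblast-like cells, 72 and 153 were Fgf8-positive and 137 and 55 Y-bearing. The part of this make-up in the Dlk1 and Hes5 ratios was not tested. The most abundant genes of the other classes over the embryonic cells had ratios of 0.766 to 1.11 in the epiblast-like cells. These were Notch4 among other receptors (0.766, 0.560 to 1.05), Poglut1 among the glycosyltransferases (1.02), Mib1, which ubiquitinates ligands (0.840, 0.768 to 0.919), Psenen of the gamma-secretase complex (1.11, 1.05 to 1.17), the corepressor Hdac1 (0.907), the ubiquitin ligase Itch (1.01) and Hes6 (0.912, 0.832 to 1.0). Hes6 was listed with the other targets, and its level is not read here as Notch output.

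In the mesoderm Dlk1 was lower in Yap1 cKO. It was 9.10 CPM in control against 3.41 in Yap1 cKO Mesp1- or Mesp2-positive cells (0.374, 0.210 to 0.650) and 39.4 and 14.6 CPM in Foxf1- or Hand1-positive cells (0.372, 0.279 to 0.491). In both populations it was the 1 other pathway gene at least 1.5-fold lower, of 25 and 23 tested, where 3.32% and 3.97% of all genes were, and 0 were higher, where 3.37% and 3.98% were. Marker genes of both populations differed between the pools, as given above. The part of cell stage and of sex in the Dlk1 ratios was not tested. In T- or Mixl1-positive cells 2 of 20 were higher and 2 lower, where 2.96% and 4.64% of all genes were. The higher ones were Hes6 (1.58, 1.11 to 2.28) and the inhibitor Numb (1.51, 1.15 to 2.0). Of the lower ones Pofut1, a glycosyltransferase named after its values were seen, had a ratio of 0.614 (0.339 to 1.11). The clock targets of segmentation were scarce, with 6 and 5 UMIs of Hes7 in Mesp1- or Mesp2-positive cells, and the endothelial ligand Dll4 had at most 6 UMIs in any gated population of a library.

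Likeness was measured as Pearson's r of log2(CPM + 1) over the 20 population levels of both libraries, points that share libraries and gates. Dll1 was most like A930007I19Rik (0.843), Mesp2 (0.838), a gate gene of its highest population, and Pcmtd1 (0.804). Dll3 was most like Heg1 (0.934), Lfng like Tenm2 (0.907), Jag1 like Grm8 (0.948) and Notch1 like Kirrel (0.896). Hes1 was most like Zfp583 (0.923) and Lhx1 (0.909), Notch2 like Arhgap6 (0.906), Notch3 like Ccnjl (0.969), Hey1 like Gphn (0.825) and Rbpj like Huwe1 (0.855). Among the members themselves the closest pair was Dll3 and Lfng (0.847).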

How the data were processed

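Single-cell RNA-seq libraries of the control and the Yap1 cKO pool were deposited by the authors as UMI counts per gene and barcode; the submitters' processing notes name Cell Ranger 7.1.0 and the mm10 build. These counts were used as deposited. Barcodes with at least 5000 genes and at most 10% mitochondrial UMIs were kept, and doublets called by Scrublet in scanpy 1.11.5 (1 in the control, 4 in Yap1 cKO) were left out, as were cells that passed no gate or both extraembryonic gates. Cells were gated by summed marker CPM, in the order of these lower limits: visceral endoderm 1000, extraembryonic ectoderm 300, anterior visceral endoderm 400 within visceral endoderm, blood 200, node 150, Foxf1 and Hand1 100, Mesp1 and Mesp2 100, T and Mixl1 40, Pou5f1 20, and Fgf8 50 to split the last. The gate limits and the markers for floating RNA were set after marker values were seen, and the members and gene lists were chosen with earlier results of these data known.

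UMIs were summed per population and library and divided by the population's total. A gene was compared with at least 50 UMIs over both libraries, and past the fold means 1.5-fold in either direction. Poisson, conditional binomial and Clopper-Pearson 95% intervals (scipy 1.17.1) cover counting error only. Of these, only the conditional binomial intervals of the ratios were tested on simulated data. Each genotype had 1 library, so no p-value is given. A cell was called Y-bearing or Xist-bearing from at least 2 UMIs of one kind and 0 of the other. Named beside the members were other Notch pathway genes past the fold with an interval that left out 1 in epiblast, T or Mixl1, or Mesp1 or Mesp2 cells, the most abundant gene of each class, and the 3 genes most like each member among those with at least 500 UMIs, of which the first 1 to 3 are printed. Some results on other pathway genes are not reported here.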

Additional observations from a re-analysis of the deposited data

Results flagged for a closer look

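Ratios of the same gene lay on opposite sides of 1 in different populations for 3 members, with intervals that each left out 1, and the difference between populations was not tested. Jag1 had a ratio of Yap1 cKO over control of 1.94 in Foxf1- or Hand1-positive cells, 0.719 in Mesp1- or Mesp2-positive cells and 0.670 in node-like cells. In the first, Xist-bearing cells alone gave 1.16 (0.542 to 2.70). In the second, the interval held 1 without the top cell of each library (0.789, 0.596 to 1.05). In node-like cells Xist-bearing cells gave 0.446 and Y-bearing cells 1.36 (0.887 to 2.04). Notch1 had a ratio of 1.56 in Foxf1- or Hand1-positive cells and 0.651 in Fgf8-low epiblast-like cells. In both populations its intervals within Xist-bearing and within Y-bearing cells held 1. Notch2 had a ratio of 1.69 in T- or Mixl1-positive cells and 0.746 in blood-like cells, where Xist-bearing cells alone gave 0.997 (0.725 to 1.38).

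Barcodes with at least 2000 but under 5000 genes, used only in the alternative with the lower minimum of genes, held 20 UMIs of Hey1 in 301 control and 45 in 417 Yap1 cKO barcodes, a ratio of 1.80 (1.04 to 3.21). They were summed without gating. Among the filtered cells, 9.75% of control and 23.5% of Yap1 cKO cells were visceral endoderm-like, and 23.2% and 12.2% extraembryonic ectoderm-like. Control Hey1 was 5.33 CPM in the former and 0.984 CPM in the latter. The part of such make-up in this ratio was not tested.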

How the results depend on the processing

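No paired analysis was possible because each genotype had 1 library. Of 144 recomputed epiblast ratios, 135 moved by less than their counting interval. The 9 that moved were, in Xist-bearing cells, Notch3 (1.26), and in Y-bearing cells Notch3 (0.736), Notch2 (1.27), Lfng (1.78) and Hey1 (1.33), then Dll3 in Fgf8-low (1.57) and Fgf8-positive cells (0.744), and Hes1 in Fgf8-positive cells (0.742) and with the control reweighted for Fgf8 (0.815). Of 138 values for ratios past the fold, 125 stayed within their interval and 4 reversed: Hey1 in Y-bearing visceral endoderm-like cells (0.237), Lfng in Mesp1- or Mesp2-positive cells under 20 CPM of Pou5f1 (1.05), and Dll3 (0.634) and Notch1 (0.807) in Foxf1- or Hand1-positive cells outside the Mesp1 or Mesp2 gate. The splits by Pou5f1 and by the Mesp1 or Mesp2 gate, and leaving out the top cell or extraembryonic cells with foreign markers, were chosen after seeing the data. In Mesp1- or Mesp2-positive cells Dll1 ran from 0.523 to 0.860 over the alternatives with UMIs in both libraries, leaving out Y-bearing cells with 0 UMIs in Yap1 cKO, and Lfng ran from 0.240 to 1.05. Clustering left no T- or Mixl1-positive group. The share of epiblast genes higher and lower was 4.25% and 5.89% at a minimum of 20 UMIs, 1.35% and 2.01% at 100, 6.80% and 11% at a lower fold threshold, and 0.639% and 0.577% at 2-fold. Shares of Mesp1- or Mesp2-positive cells moved with depth. Dll1 was in 76.4% of control and 58.0% of Yap1 cKO cells unthinned, and in 30.4% of the latter at 20000 UMIs. Lfng was in 67.3% and 40.6% unthinned, and in 18.2% and 20.3% at 20000. Hes1 in epiblast-like cells was at 58.5% and 58.8% at 20000 and at 87.9% and 91.8% unthinned.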

Other observations

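Of the 42 other Notch pathway genes, Nrarp and Dlk1 are described here, chosen after their values were seen. Nrarp, a target that dampens Notch signaling, stood at 27.5 CPM (25.1 to 30.1) in control and 25.5 CPM (22.8 to 28.5) in Yap1 cKO extraembryonic ectoderm-like cells, against 3.72 and 3.28 CPM in epiblast-like, 6.83 and 8.28 in Mesp1- or Mesp2-positive, 9.89 and 7.12 in node-like, 11.7 and 11.03 in blood-like and 21.1 and 19.7 CPM in anterior visceral endoderm-like cells. In visceral endoderm-like cells Nrarp was 8.67 and 5.31 CPM, a ratio of 0.613 (0.430 to 0.881). Dlk1 in visceral endoderm-like cells was 64.5 CPM (58.2 to 71.3) in control and 96.7 CPM (92.0 to 102) in Yap1 cKO, a ratio of 1.499 (1.34 to 1.68), and it was 4.57 and 7.96 CPM in extraembryonic ectoderm-like cells (1.74, 1.28 to 2.37). Sox2-Cre is not meant to delete Yap1 in these cells. The paper gives extraembryonic tissues as likely heterozygous for Yap1 in embryos with both alleles floxed. The series text does not give that genotype for the control pool, so the pools may differ there. Yap1 itself was 31.8 and 27.9 CPM in visceral endoderm-like cells and 24.9 and 18.2 CPM in extraembryonic ectoderm-like cells. Y-bearing cells were 25 of 77 control and 12 of 202 Yap1 cKO visceral endoderm-like cells. Among extraembryonic ectoderm-like cells they were 111 of 183 and 19 of 105. The part of extraembryonic Yap1, sex or embryo in the Nrarp and Dlk1 ratios was not tested.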
